A study of Mus musculus with 13 samples.

Results

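Trp53, the gene of the p53 protein, and 9 genes that p53 is known to switch on were followed through cuprizone feeding and recovery in mouse brain. The members were Trp53, Cdkn1a, Mdm2, Ccng1, Bax, Bbc3, Trp53inp1, Phlda3, Eda2r and Sesn1, 10 of the 55401 genes in the count table. They were taken by gene symbol as well-known members of the pathway, with earlier results of these data in view, so the number that changed describes this choice of genes and supports nothing by itself. Each symbol stood for 1 row of the table, so no row had to be chosen by its counts. All 10 passed the filter on low counts. Eda2r passed it only through the cuprizone group, where all 4 libraries reached the filter's 1.49 CPM (the gene's counts scaled to a common library size) and none of the other libraries did, so a gene that entered the test this way had to differ.

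Bulk RNA-seq was done on 1 frozen brain hemisphere per animal from male C57BL/6J wild-type mice, 6 to 8 weeks old by the labels. The 5 CTL libraries came from mice on control chow for 6 weeks, the 4 CPZ libraries from mice on chow with 0.3% cuprizone for 4 weeks, and the 4 RCV libraries from mice given cuprizone for 4 weeks and control chow for another 2 weeks. RCV libraries were assigned by their treatment label, Recovery, although their titles begin with Veh, and all RCV values rest on that label. Cuprizone is a copper chelator that kills mature oligodendrocytes, the myelin-forming cells, and myelin returns once it is withdrawn. CPZ animals were collected 2 weeks earlier in the experiment than CTL and RCV animals, so feeding and that difference in time cannot be told apart. Totals per library ran from 4605100 to 8197289 estimated counts, and the labels give no batch. In bulk tissue, more cells of a type and more RNA per cell cannot be told apart.

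p53 is a transcription factor that is kept scarce by the ubiquitin ligase Mdm2, itself a product of a p53 target gene, and is stabilised when DNA damage, ribosomal stress or other injury blocks that loop. Much of its control lies in the protein, so the mRNA of Trp53 is not a measure of p53 activity. Its targets halt the cell cycle (Cdkn1a, the inhibitor p21), feed back on p53 (Mdm2, Ccng1), open the mitochondrial route to cell death (Bax, Bbc3, also called Puma), or limit growth signalling and oxidative damage (Phlda3, Sesn1, Trp53inp1). Eda2r encodes a receptor of the TNF receptor family that is induced by p53.

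The DNA that p53 reads is a pair of half-sites, each 10 bases long and its own reverse complement in pattern, separated by a spacer of 0 to 13 bases. RefSeq promoter windows (GRCm38.p6, 250 bases before to 50 after each transcription start) matched 9 of the 10 members by symbol, in 13 windows; Trp53inp1 is not shown. A half-site without mismatch lay in a window of 6 of these 9 members, Trp53, Cdkn1a, Mdm2, Ccng1, Bax and Sesn1. These were 6 of the 13 windows, against 8.36% of all 32851 windows of the same length, and 9.55% of all genes had a half-site in some window. A full element with at most 1 mismatch lay in a window of 2 members, Cdkn1a and Ccng1. These were 2 of the 13 windows, against 0.627% of all windows, and 0.718% of all genes had one. The upstream Cdkn1a window also held an element without mismatch, as did 24 windows in all (0.0731%). These matches describe the letters only, and a window without one says nothing about sites elsewhere. Shown first are the stretches before the start of Cdkn1a and Ccng1, the called members with a full element, and of Eda2r, the member with the second largest log2 fold change, which had no match. Bases that GENCODE places inside the gene were left off the end, and capitals mark bases of half-sites and full elements.
Cdkn1a, chr17:29090729-29090975, plus strand: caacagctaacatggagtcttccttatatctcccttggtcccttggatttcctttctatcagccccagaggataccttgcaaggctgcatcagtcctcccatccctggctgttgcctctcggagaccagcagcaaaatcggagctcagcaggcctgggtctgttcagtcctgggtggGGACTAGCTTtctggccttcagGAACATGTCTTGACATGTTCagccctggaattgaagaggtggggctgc
Ccng1, chr11:40755312-40755536, minus strand: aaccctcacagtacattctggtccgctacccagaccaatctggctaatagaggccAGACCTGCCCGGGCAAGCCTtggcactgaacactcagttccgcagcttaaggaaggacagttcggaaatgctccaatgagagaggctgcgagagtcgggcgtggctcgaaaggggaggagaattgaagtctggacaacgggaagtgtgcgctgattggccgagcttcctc
Eda2r, chrX:97377217-97377459, minus strand: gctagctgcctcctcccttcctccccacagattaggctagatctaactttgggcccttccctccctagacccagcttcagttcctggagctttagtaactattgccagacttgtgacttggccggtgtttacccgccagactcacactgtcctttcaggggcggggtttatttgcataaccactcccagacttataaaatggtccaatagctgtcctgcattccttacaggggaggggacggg

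In Cdkn1a, counted back from the RefSeq start at the upstream of its 2 windows, one full element ran from base -73 to -42 with a spacer of 12 bases and 0 mismatches. A second ran from -51 to -32 with no spacer and 1 mismatch, and shared its first half-site with the former. In Ccng1 the element ran from -195 to -176 with 1 mismatch. The 4 members with a single half-site are shown with 10 bases on each side, to let the site of the p53 gene itself be set beside those of its targets.
Trp53, chr11:69580274-69580303, plus strand: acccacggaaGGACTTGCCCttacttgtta
Mdm2, chr10:117710925-117710954, minus strand: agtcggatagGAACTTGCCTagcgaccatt
Bax, chr7:45467080-45467109, minus strand: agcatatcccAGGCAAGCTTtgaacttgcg
Sesn1, second start, chr10:41887256-41887285, plus strand: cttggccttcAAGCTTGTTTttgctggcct
Phlda3, a called member, and Bbc3, in 3 windows, held no half-site in these bases.

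**Figure D1:**
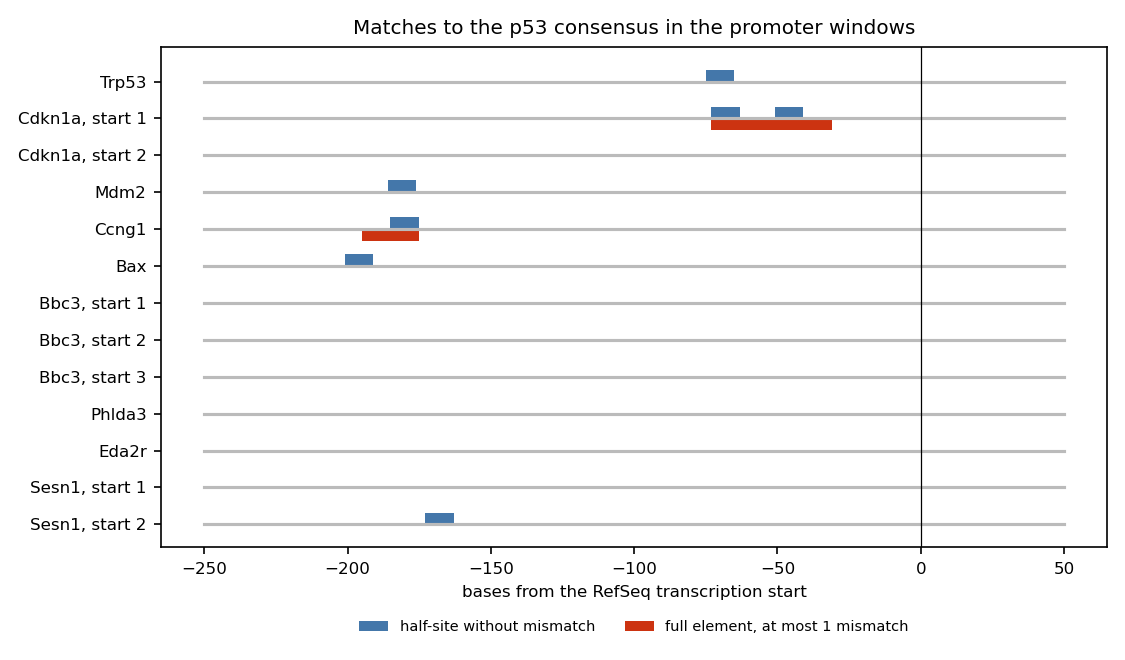
Positions of p53 consensus matches in the 13 RefSeq promoter windows of 9 members, in bases from the transcription start. Blue bars are half-sites without mismatch and red bars full elements with at most 1 mismatch, present for Cdkn1a and Ccng1, with overlapping elements drawn as 1 bar.

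After 4 weeks of cuprizone, 5 of the 10 members rose: Cdkn1a, Eda2r, Phlda3, Ccng1 and Trp53 itself. Eda2r passed the filter on low counts only through CPZ, so its place in this count supports nothing by itself. Cdkn1a rose 5-fold and Eda2r 3.92-fold, while the other rises were between 1.28-fold and 1.41-fold. None fell, and all 10 estimates lay above 0. After 2 weeks of recovery no member differed from control by the same test. Calls are at an adjusted p below 0.05 (edgeR quasi-likelihood test, Benjamini-Hochberg over 14985 genes), by which 7.66% of all genes tested were higher in CPZ than in CTL and 10.2% differed in either direction. The median log2 fold change of the members was 0.39, and that of all genes tested was -0.02.

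Cdkn1a encodes p21, which blocks cyclin-dependent kinases and so holds a cell out of division. Its level was 8.29, 9.6, 10.6, 9.79 and 5.68 CPM in the 5 CTL libraries, 46.5, 41.4, 53.7 and 35.8 CPM in the 4 CPZ libraries, and 6.16, 7.13, 5.77 and 8.89 CPM in the 4 RCV libraries. The lowest CPZ library was more than 3 times the highest library of either other group, and CTL and RCV overlapped. The log2 fold change between CPZ and CTL was 2.32 (SE 0.16, 95% interval 1.99 to 2.65, adjusted p = 2.4e-07). Between RCV and CTL it was -0.35 (95% interval -0.76 to 0.055, adjusted p = 0.86), an interval that leaves room for a lower level in RCV. On the strand opposite to Cdkn1a lies AC167363.2, which shares 7.68% of its exon bases, but that gene averaged only 0.308 counts per library.

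Eda2r, the receptor gene, was the scarcest member. It had 4 to 9 counts in the CTL libraries, 15 to 35 in the CPZ libraries and 1 to 6 in the RCV libraries, so its values are coarse. In CPM these were 1.22, 0.6, 0.922, 0.764 and 0.917 in CTL, 2.16, 3.4, 4.86 and 3.74 in CPZ, and 0.44, 0.972, 0.577 and 0.217 in RCV. CPZ libraries lay above all others in CPM, and RCV and CTL overlapped. In TPM, which RSEM scales by transcript length and by the library's total, CTL reached 0.98 and CPZ began at 0.97, so these groups just touched. The log2 fold change between CPZ and CTL was 1.97 (SE 0.32, 95% interval 1.29 to 2.66, adjusted p = 0.00051), and that between RCV and CTL was -0.63 (95% interval -1.58 to 0.32).

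Ccng1 encodes cyclin G1, which recruits a phosphatase to Mdm2 and belongs to the feedback arm. Its level was 62.9, 61.7, 79.6, 50 and 72.1 CPM in CTL, 91.9, 88.2, 89.9 and 82.9 CPM in CPZ, and 67.3, 54.1, 59.7 and 57.2 CPM in RCV. All CPZ libraries exceeded all others, with a much narrower spread (4.38% of the mean) than CTL (17.2%). The log2 fold change between CPZ and CTL was 0.44 (SE 0.10, adjusted p = 0.0112). On the log2(TPM + 1) scale the same contrast missed the threshold (0.41, adjusted p = 0.0526), and adjusted p ranged from 0.0019 to 0.0907 over 10 alternative settings.

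Mdm2, the ligase that marks p53 for destruction, is the classic feedback target. It was at 46.6, 47.1, 44.7, 40.1 and 44.9 CPM in CTL, at 52.7, 51.1, 52.3 and 45.4 CPM in CPZ, and at 41.9, 43.1, 47.5 and 49 CPM in RCV. In 3 of 4 CPZ libraries it was above every CTL and RCV library, and the fourth lay inside both ranges. The log2 fold change between CPZ and CTL was 0.17 (95% interval 0.02 to 0.32, adjusted p = 0.163), which missed the threshold and bounds any rise well under that of Cdkn1a.

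Phlda3 encodes a small lipid-binding protein that competes with the kinase Akt for the membrane. It was at 15.5, 18.2, 20.6, 24.3 and 20 CPM in CTL, at 24.5, 29.8, 30.8 and 25.6 CPM in CPZ, and at 18, 22.7, 21 and 22.1 CPM in RCV. The groups CTL and CPZ met closely, at 24.3 and 24.5 CPM. The log2 fold change between CPZ and CTL was 0.49 (SE 0.12, adjusted p = 0.0116).

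Trp53 itself was at 16.9, 20, 20.9, 18.8 and 15 CPM in CTL, at 26.8, 21.8, 22.8 and 22.5 CPM in CPZ, and at 20.1, 21.1, 18.5 and 16.7 CPM in RCV. CPZ libraries lay above the others without overlap, by a small margin: the lowest CPZ library had 21.8 CPM and the highest RCV library 21.1 CPM. The log2 fold change between CPZ and CTL was 0.35 (SE 0.11, 95% interval 0.13 to 0.58), and its adjusted p of 0.0452 was the nearest to the threshold among the called members. The call was lost in 9 of the 13 fits that left out 1 library, namely CTL 1, 4 or 5, any of the 4 CPZ libraries, or RCV 1 or 3, with log2 fold changes of 0.29 to 0.40 over all 13 and adjusted p from 0.0292 to 0.166. It was also lost in all 3 fits on TPM (adjusted p 0.0525 to 0.0848) and with replicate number as a block (0.162).

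**Figure D2:**
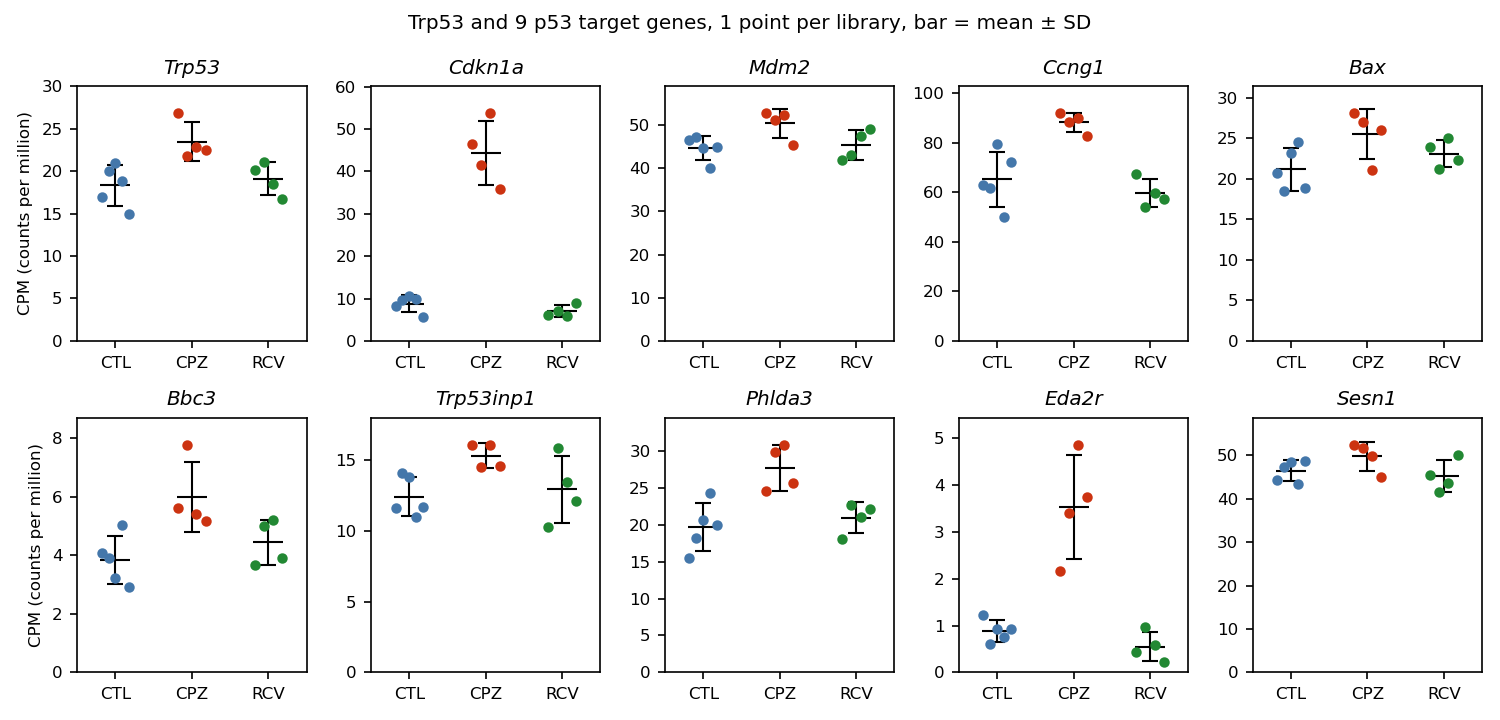
CPM of the 10 members in the 5 CTL (blue), 4 CPZ (red) and 4 RCV (green) libraries, 1 point per library, with bars for the mean ± SD, each panel starting at 0. Cdkn1a and Eda2r stand apart in CPZ, and the RCV points of every member overlap the CTL points.

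Bbc3 and Bax, the members of the mitochondrial death route, were not called. Bbc3 encodes Puma, a BH3-only protein that releases the pore formers. Its level was 4.08, 3.9, 3.23, 5.05 and 2.93 CPM in CTL, 5.62, 7.78, 5.41 and 5.16 CPM in CPZ, and 3.66, 5.02, 5.2 and 3.9 CPM in RCV. CPZ libraries lay just above CTL without overlap, and the log2 fold change of 0.64 (SE 0.20, 95% interval 0.22 to 1.05) was the third largest among the members, yet its adjusted p was 0.0507. On log2(TPM + 1) the log2 fold change was 0.34, below that of Phlda3 (0.46), Ccng1 (0.41) and Trp53 (0.40), and on log2(TPM + 0.1) it was 0.39. With limma-voom the adjusted p was 0.0446, and over 10 alternative settings it ran from 0.0389 to 0.374. Without CTL 4, the CTL library with the most Bbc3, the log2 fold change was 0.75 (adjusted p = 0.0255).

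Bax, the pore former itself, was at 18.5 to 24.6 CPM in CTL (median 20.7), at 21.1 to 28.1 CPM in CPZ (median 26.5) and at 21.2 to 25 CPM in RCV (median 23.2). All 3 groups overlapped, and the log2 fold change between CPZ and CTL was 0.27 (95% interval 0.046 to 0.49, adjusted p = 0.132). Without CPZ replicate 3, the CPZ library with the least Bax, it was 0.36 and passed the threshold (adjusted p = 0.0385). Gm45808 shares 12.2% of the exon bases of Bax on the same strand and averaged 1.92 counts per library.

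Trp53inp1 and Sesn1, both linked to the handling of oxidative stress, were also not called. Trp53inp1 was at 11.6, 14.1, 13.8, 11 and 11.7 CPM in CTL, at 16.1, 14.5, 16.1 and 14.6 CPM in CPZ, and at 10.3 to 15.9 CPM in RCV. CPZ lay above CTL without overlap, with a log2 fold change of 0.30 (95% interval 0.034 to 0.56, adjusted p = 0.165). Sesn1 was at 43.4 to 48.6 CPM in CTL, 44.9 to 52.4 CPM in CPZ and 41.6 to 50.1 CPM in RCV. Its groups overlapped throughout, with a log2 fold change of 0.099 (95% interval -0.049 to 0.25, adjusted p = 0.47), the smallest among the members.

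In CPM, the CPZ libraries were all above the CTL libraries for 7 of the 10 members (8.25% of all genes tested were separated this way), the 5 called members with Bbc3 and Trp53inp1. In TPM this was so for 2 members, Trp53 and Cdkn1a, and for 6.01% of all genes tested. CTL libraries reached into the CPZ range in TPM for Ccng1 (48.1 against a CPZ low of 47.6) and Phlda3 (39.1 against 38.6). Eda2r, among the 7 separated in CPM, was tested only through CPZ.

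For recovery against control, 0 of the 10 members were called and 0 had an unadjusted p under 0.05 in edgeR, and DESeq2 and limma-voom also called 0. The share of all genes with an unadjusted p under 0.05 was not counted. Of all genes tested, 0.374% were called in either direction. No member separated the groups in CPM, against 2.90% of all genes tested. The estimates ran from -0.63 for Eda2r to 0.20 for Bbc3, with a median of 0.036 against -0.0044 over all genes. Eda2r was at -1.05 without RCV 2, the RCV library with the most Eda2r, and at -0.42 without RCV 4, the one with the least. The intervals bound any remaining difference more tightly for abundant members, such as Mdm2 (-0.14 to 0.17) and Sesn1 (-0.19 to 0.11), than for scarce ones such as Eda2r (-1.58 to 0.32).

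Between the cuprizone and recovery groups, 3 members were higher in CPZ and none lower, where 5.13% of all genes tested were higher and 7.01% differed in either direction. This contrast shares its CPZ libraries with the first, and Eda2r again entered it only through CPZ. Cdkn1a differed by 2.68 on the log2 scale (SE 0.18, adjusted p = 8.1e-07), Eda2r by 2.60 (SE 0.38, adjusted p = 0.00066) and Ccng1 by 0.56 (SE 0.11, adjusted p = 0.0054). Phlda3 was at 0.41 (SE 0.13, adjusted p = 0.0695) and Trp53 at 0.29 (SE 0.11, adjusted p = 0.164), both uncalled. Phlda3 passed without CTL 1 or without CTL 4, with the same log2 value. CPZ libraries lay above all RCV libraries for 5 members, in CPM as in TPM, namely these 5, against 8.26% of all genes tested in CPM and 6.05% in TPM.

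**Figure D3:**
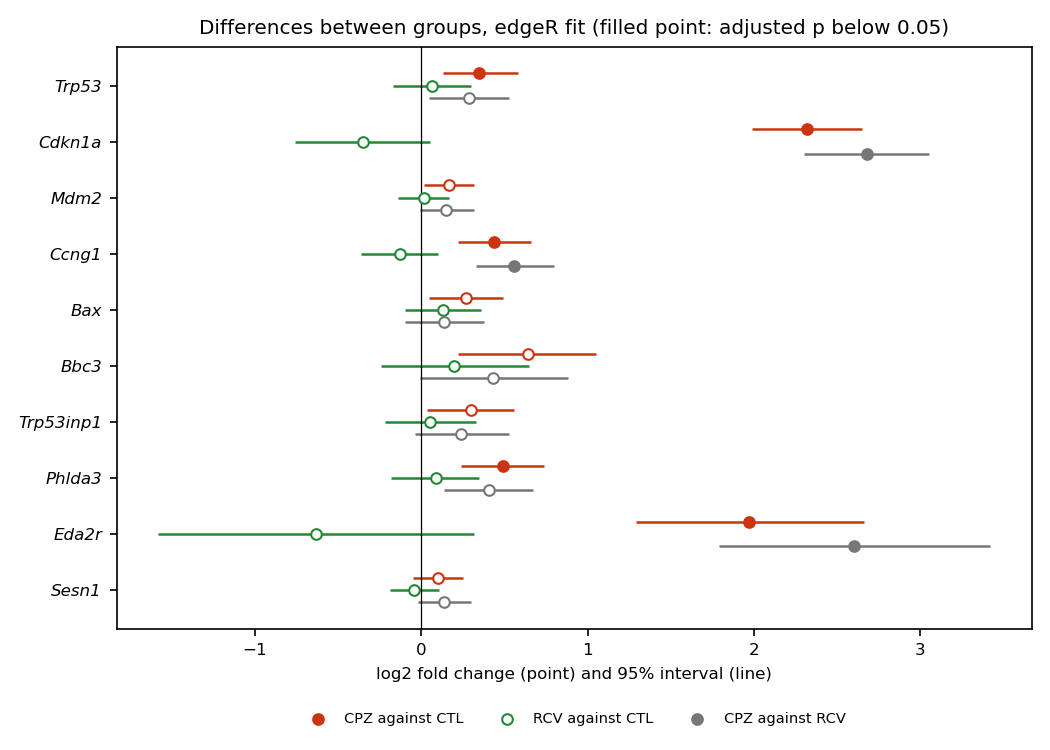
Log2 fold changes of the 10 members with 95% intervals for CPZ against CTL (red), RCV against CTL (green) and CPZ against RCV (grey), filled where the adjusted p was below 0.05. All red points lie right of 0, and every green interval spans 0.

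Per transcript length, the order of the members shifted with feeding. In CTL, Bax was the most abundant member by TPM (58.2 ± 7.25, SD, n = 5), followed by Mdm2 (43.7 ± 6.25), Ccng1 (39.3 ± 6.94), Sesn1 (36.6 ± 2.2) and Phlda3 (31.5 ± 5.45). These 5 levels each overlapped the next. Below them came Trp53 at 20.7 ± 2.93 TPM, which overlapped neither neighbour, then Cdkn1a at 10.2 ± 2.2 TPM, in place 7. Bbc3 (5.96 ± 1.15 TPM) and Trp53inp1 (5.51 ± 1.48 TPM) overlapped each other, and Eda2r was lowest at 0.646 ± 0.285 TPM.

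In CPZ, Cdkn1a stood in place 2 at 52.1 ± 10 TPM (SD, n = 4), between Bax (70 ± 8.74) and Ccng1 (51.9 ± 3.04), overlapping both. Mdm2 followed at 46.1 ± 3.48 TPM and Phlda3 at 43.4 ± 5.3 TPM. In RCV, Cdkn1a was back in place 7 at 8.28 ± 1.5 TPM (SD, n = 4), between Trp53 (21.7 ± 1.55 TPM) and Bbc3 (7.17 ± 1.07 TPM). Eda2r was last in every group, at 1.62 ± 0.559 TPM in CPZ and 0.415 ± 0.309 TPM in RCV.

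A list of 35 other p53 targets was measured beside the members, and 32 of them passed the filter. Of these, 8 were higher in CPZ than in CTL and 0 lower, where 7.66% of all genes tested were higher. Ckap2, a spindle protein that rises in dividing cells, was up by 1.79 on the log2 scale (SE 0.33), Tap1, the peptide transporter for antigen presentation, by 1.56 (SE 0.23), and Gadd45a, a growth arrest and DNA damage response gene, by 1.42 (SE 0.23). Dcxr, a carbonyl reductase, rose by 0.98 (SE 0.22). The remaining 4 were Sesn2, Ephx1, Abhd4 and Aen, at 0.34 to 0.75. The level of Gadd45a was 3.75 ± 1.22 CPM (SD, n = 5) under control chow, 9.99 ± 2.23 CPM (n = 4) under cuprizone and 3.59 ± 0.772 CPM (n = 4) after recovery.

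The other 24 targets of this list were not called, at -0.36 to 0.75. The list's median was 0.074, and that of the 10 members 0.39. Members and list were chosen with earlier results of these data known, so the gap between the medians supports nothing by itself. Among the 24 were widely used p53 targets: Zmat3 at -0.07, Plk2 at -0.08, Ddb2 at -0.07, Ppm1d at 0.02 and Rrm2b at 0.01. Others lay further from 0: Fas at 0.75 (SE 0.41), Pmaip1 at 0.56 (SE 0.33), Btg2 at 0.38 (SE 0.30) and Ddit4 at -0.36 (SE 0.12). Of all 32 tested, 21 had an estimate above 0. The uncalled genes named here were picked after their values were seen. Ckap2, like Eda2r, passed the filter only through CPZ. Gtse1, Gdf15 and Tnfrsf10b were too scarce to be tested. In recovery, 0 of the 32 were called in edgeR, with 0 also in DESeq2 and in limma-voom, while 5 had an unadjusted p under 0.05. The share of all genes with such a p was not counted, so these 5 are not a result about the list. Between CPZ and RCV 7 were higher, the genes called against CTL without Tap1, and 0 lower. Of all genes tested, 5.13% were higher in CPZ than in RCV, the share to set beside this list and the later ones. Tap1 was at 0.78 against RCV (adjusted p = 0.0576) and at 6.31 ± 0.825 CPM (n = 4) in RCV, between CTL (3.68 ± 1.3, n = 5) and CPZ (10.9 ± 2.71, n = 4). Without CPZ 1 the count of 7 was 4.

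Of 22 regulators of p53, 20 were tested; Cdkn2a and Trp63 were not. Between CPZ and CTL, 2 were higher and 1 lower, where 10.2% of all genes tested differed in either direction. Chek2, a checkpoint kinase that phosphorylates p53, rose by 1.06 (SE 0.27, adjusted p = 0.0188), Rpl11, a ribosomal protein that binds Mdm2, by 0.21 (SE 0.06, adjusted p = 0.0473), and Trp53bp2, whose product steers p53 to death genes, fell by 0.27 (SE 0.08, adjusted p = 0.0423). Mdm4, the partner of Mdm2, was at 0.04 (SE 0.05, adjusted p = 0.766). The other uncalled regulators lay between -0.19 and 0.24, with Atm, Atr, Ep300 and Usp7 among them. In recovery 0 of the 20 were called. Against RCV, Rpl5 was higher in CPZ (0.30) and Trp53bp2 lower (-0.30).

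The Bcl-2 family and caspases, beyond the members Bax and Bbc3, numbered 22, of which 20 were tested and Bcl2a1d and Bik were not. In CPZ 6 were higher than in CTL and 0 lower, where 7.66% of all genes tested were higher. Bcl2a1b, a survival gene of myeloid cells, was up by 3.98 (SE 0.48) and passed the filter only through CPZ. Casp8, the caspase of death receptors, rose by 1.49 (SE 0.28), Bmf, a BH3-only gene, by 1.02 (SE 0.19), Bak1, the other pore former, by 0.51 (SE 0.11), Bid, which Casp8 cleaves, by 0.50 (SE 0.14), and Mcl1, a survival gene, by 0.40 (SE 0.07). Casp8, Bmf, Bak1 and Bid favour cell death, and Bcl2a1b and Mcl1 oppose it. In recovery 0 were called and 2 had an unadjusted p under 0.05, which was not counted over all genes. Against RCV 4 were higher in CPZ, namely Bcl2a1b, Casp8, Bak1 and Mcl1.

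Genes of the integrated stress response, the program by which Atf4 answers amino acid and endoplasmic reticulum stress, were also measured. Of 12, 9 were higher in CPZ than in CTL and 0 lower, where 7.66% of all genes tested were higher. The 9 were led by Atf3 (4.62, SE 0.37), Trib3 (4.28, SE 0.56), Atf5 (2.86, SE 0.11) and Nupr1 (2.71, SE 0.18). Trib3 passed the filter only through CPZ. Atf3 reached the filter's cutoff in all 4 CPZ and all 4 RCV libraries and in 0 CTL libraries. It therefore entered the test only through groups where it was high. Atf3, a stress-induced transcription factor, was still higher in RCV than in CTL by 2.59 (SE 0.45, adjusted p = 0.0203), the single gene of these lists called in recovery. Against RCV, 9 were again higher in CPZ, with Trib3 at 4.23 and Atf5 at 2.78.

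Proliferation genes, which p21 represses through the retinoblastoma pathway, were higher in CPZ together with Cdkn1a. Of 12, 8 were tested, 7 rose and 0 fell, where 7.66% of all genes tested were higher in CPZ than in CTL. Among the 7 were Cdk1 by 3.03 (SE 0.34), Mki67 by 2.98 (SE 0.36) and Top2a by 2.64 (SE 0.37). Of the 8 tested, 3 passed the filter only through CPZ, namely Cdk1 and Ccnb2, both called, and Plk1, which was not called. Birc5, also called, reached the filter's cutoff in 3 CPZ, 2 RCV and 0 CTL libraries. The summed level of all 12, tested or not, was 13.4 to 22.5 TPM in CTL, 34.4 to 58.4 TPM in CPZ and 17.3 to 24.3 TPM in RCV. In recovery 0 were called, and against RCV 4 were higher in CPZ.

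**Figure D4:**
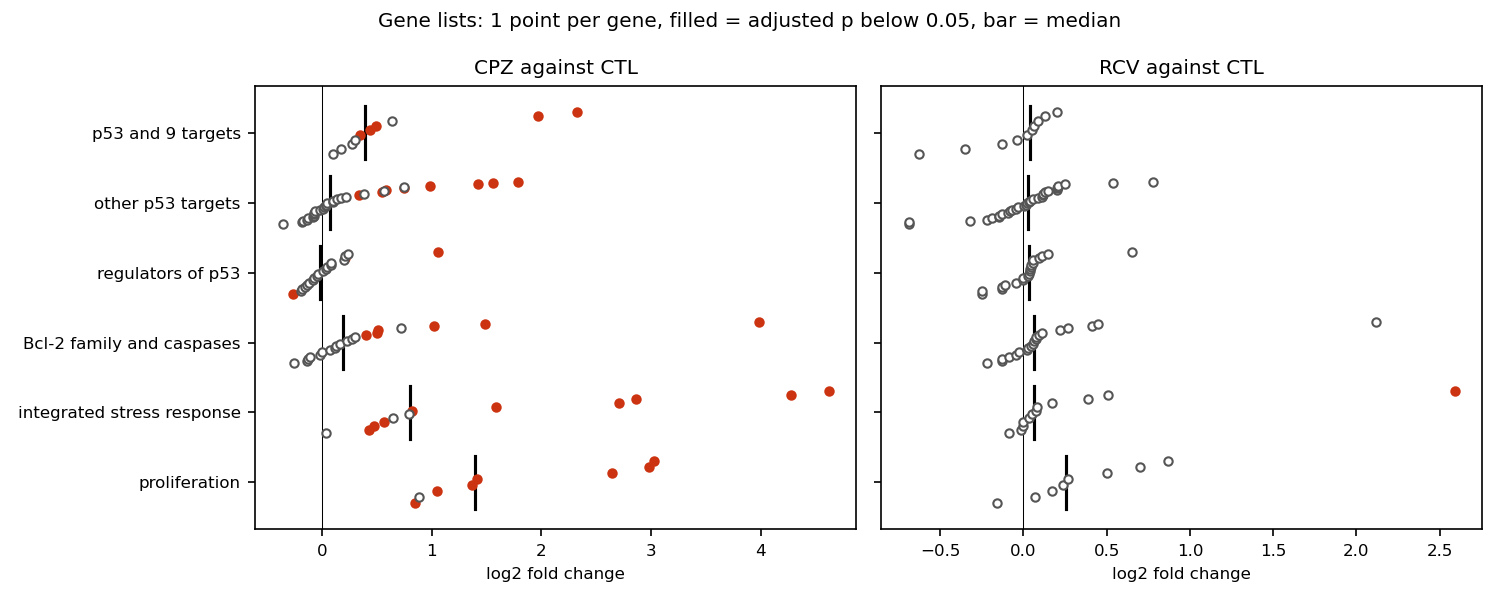
Log2 fold changes of the genes tested in 6 lists for CPZ against CTL (left) and RCV against CTL (right), 1 point per gene, filled where the adjusted p was below 0.05, with a bar at each list's median. On the right the only filled point is Atf3.

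Cell type markers moved with the same contrast. Of all genes tested, 7.66% were higher in CPZ than in CTL and 10.2% differed in either direction. For RCV against CTL, 0.374% were called in either direction. Summed over 13 genes, microglial markers were at 536 to 643 TPM in CTL, 2186 to 4777 TPM in CPZ and 873 to 1285 TPM in RCV, and all 13 were higher in CPZ than in CTL. Summed over 11 genes, mature oligodendrocyte markers were at 4383 to 7996 TPM in CTL, 1793 to 2945 TPM in CPZ and 5667 to 9524 TPM in RCV, and all 11 were lower in CPZ. Astrocyte markers were at 1821 to 2170 TPM in CTL, 2644 to 3187 TPM in CPZ and 2305 to 2625 TPM in RCV, with 6 of 9 higher in CPZ than in CTL and 3 of 9 higher in RCV. The 3 were Gfap (1.80, SE 0.15), Serpina3n (1.93, SE 0.27) and Aqp4 (0.44, SE 0.09). Of the microglial markers 1 of 13, Ctss (1.24, SE 0.21), was called higher in RCV than in CTL. Endothelial markers were at 200 to 242 TPM in CTL, 168 to 206 TPM in CPZ and 172 to 187 TPM in RCV, all RCV libraries being below CTL, and 1 of 5, Cldn5, was lower in RCV (-0.68, SE 0.12, adjusted p = 0.0263). Neuronal and precursor sums overlapped among all 3 groups, and no marker was at 0 in all libraries of a group. Of 6 precursor markers 1, Cspg4, was higher in CPZ than in CTL (0.45, SE 0.13, adjusted p = 0.0396), and of 8 neuronal markers 0 were called. The part of these cell types in the members' changes was not tested.

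In the libraries CPZ 1 to CPZ 4 the microglial sum was 4777, 4153, 2186 and 2696 TPM, beside Cdkn1a at 46.5, 41.4, 53.7 and 35.8 CPM and Eda2r at 2.16, 3.4, 4.86 and 3.74 CPM. CPZ 3 had the lowest microglial sum with the highest Cdkn1a and Eda2r. For Cdkn1a the other 3 libraries fell in the same order as the sum, and for Eda2r all 4 fell in the opposite order. These orders rest on 4 libraries, and that of Eda2r on 15 to 35 counts. A link between the sum and either gene was not tested. Choroid plexus markers varied within all groups, and RCV 3 and RCV 4 had almost none (7.24 and 7.23 TPM, against 735 TPM or more in every CTL library). Blood markers were at 850 to 1106 TPM in CTL, 687 to 1005 TPM in CPZ and 1017 to 1466 TPM in RCV, all CPZ libraries being below all RCV libraries. Of 5 blood markers 2, Hba-a2 (-0.59, SE 0.13) and Hbb-bt (-0.91, SE 0.20), were lower in CPZ than in RCV. Of all genes tested, 7.01% differed in that contrast in either direction.

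**Figure D5:**
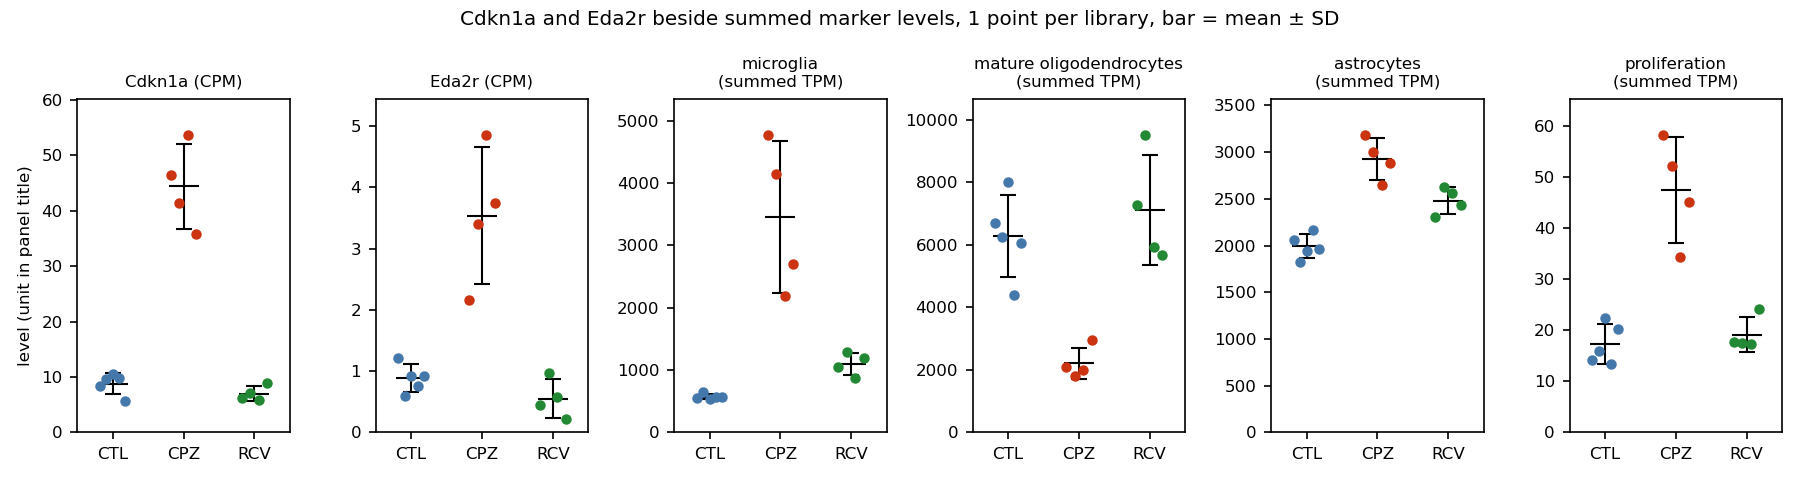
CPM of Cdkn1a and Eda2r beside summed TPM of marker genes, 1 point per library with mean ± SD. Cdkn1a, Eda2r and the microglial, astrocyte and proliferation sums are highest in CPZ, and the mature oligodendrocyte sum is lowest there.

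For 4 of the called members, the 3 genes with the most similar profile were those with the smallest mean absolute difference in log2 CPM over the 13 libraries, after centring on the CTL mean. For Cdkn1a these were Atf5 (0.35), a transcription factor of the integrated stress response, S1pr3 (0.39), a receptor for sphingosine 1-phosphate, and AI506816 (0.42). For Eda2r they were Mthfd2 (0.35), a mitochondrial folate enzyme, Mcm3 (0.42), a subunit of the replication helicase, and Itgb3 (0.43), an integrin. Ccng1 lay nearest to Nek7 (0.09), Mcm7 (0.09) and Psph (0.10), and Phlda3 to Aldh1l1 (0.11), a folate enzyme used as an astrocyte marker, Vcam1 (0.12) and Ginm1 (0.12). The values of Ccng1 and Phlda3 are smaller because these members spanned a smaller range, and cannot be set against those of Cdkn1a.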

How the data were processed

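Bulk RNA-seq libraries (Kapa mRNA HyperPrep, paired 50-base reads) were processed by the authors with STAR and RSEM against mm10, per the submitters' processing notes. For versions and the strand setting, nothing was given in the sources used here. The authors deposited RSEM estimated counts and TPM per gene, 4.45% of the estimated counts not being whole. Here counts were rounded and fitted over all 13 libraries with edgeR 4.0.16 (R 4.3.3): TMM, filterByExpr, robust quasi-likelihood F test, Benjamini-Hochberg adjustment over 14985 genes, threshold 0.05. The 92 spike-in rows held 0 counts. CPM used TMM library sizes. Alternatives were DESeq2 1.42.0, limma 3.58.1 (voom, and log2(TPM + 1) or log2(TPM + 0.1)), other filters, the 2 groups compared alone, replicate number as a block, and each library left out.

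The members and lists were chosen with earlier results of these data known. All members were named, with up to 4 called genes in each direction (CPZ against CTL) per pathway list, and any gene of those lists called in RCV against CTL. Further genes named were chosen after their values were seen. Identifiers matched GENCODE M21 for 98.1% of genes. The labels state fewer animals than the 13 libraries, and each library was counted as 1 sample. All replicate pairs differed by more than counting noise (chi-square per gene 4.46 or more). Whether replicates are separate animals rests on the labels and the paper. The nearest profiles of Trp53 are not reported here.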

Additional observations from a re-analysis of the deposited data

How the results depend on the processing

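Counts of called members were within 1.5 times the main value in most settings. The exceptions were the fits on TPM: for CPZ against CTL, 2 members were called on log2(TPM + 1), 2 on log2(TPM + 0.1) and 1 on log2(TPM + 1) without a filter, where the counts gave 5. Of all genes, these fits called 6.36%, 6.19% and 3.44%. Eda2r could not be tested in the filtered TPM fits. Other p53 targets called for CPZ against CTL numbered 5 on log2(TPM + 0.1), against 8. For CPZ against RCV they numbered 11 without a filter on low counts, and 3, 3 and 4 in the same 3 TPM fits, against 7. With 1 library left out, called members ranged from 4 to 5 (CPZ against CTL), 0 to 0 (RCV against CTL) and 3 to 4 (CPZ against RCV), and other targets from 8 to 9, 0 to 0 and 4 to 9. Not every call among the other targets was then a rise. Without CPZ 2, 8 of 9 were higher against CTL and 5 of 6 against RCV. Without CTL 3, 8 of 9 were higher in CPZ against RCV. In RCV against CTL, Mdm2 went from 0.019 to -0.062, -0.064 and -0.062 in the TPM fits and ranged from -0.024 to 0.056 with 1 library left out, and Trp53inp1 from -0.066 to 0.16. Single calls lost in TPM fits were Ccng1 (all 3), Trp53 (all 3), and, without a filter, Phlda3 (adjusted p = 0.0766) and Eda2r (0.145, and 0.0765 against RCV). Phlda3 against RCV passed without a filter on counts (0.0301) and with only the 2 groups compared (0.0476), and Bbc3 passed with at least 10 counts in every library (0.0389). The cause was not tested. Eda2r and Bbc3 rest on the fewest counts.

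Replicate numbers did not pair the libraries: deviations of 12 same-numbered pairs correlated at -0.199 to 0.136, with 3 of 12 over 0.1, and 1 of 12 libraries correlated best with its own number. With the replicate block, called members numbered 4, 0 and 3 and other targets 9, 0 and 6 in the 3 comparisons. Of the 9 other targets called for CPZ against CTL with the block, 8 were higher. Over all genes, CPZ against CTL called 1172 with the block and 1522 without. Trp53 in RCV against CTL was -0.00063 with the block.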
